A study of Homo sapiens with 2 samples.

Results

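The regions described here are the 2950 peaks of a PML-RARA antibody that lay within 3 Mb of a chromosome end in NB4 cells, out of 20085 peaks in the deposited list and 19693 on chromosomes 1 to 22. Members were chosen by position alone: the midpoint of the peak had to lie within 3 Mb of either end of an hg19 chromosome. The short-arm ends of the acrocentric chromosomes 13, 14, 15, 21 and 22 were left out and held 0 peaks, which left 39 ends, 17 on short arms and 22 on long arms. The remaining 16743 peaks of these chromosomes, called interior peaks here, are the reference. NB4 is a human cell line of acute promyelocytic leukemia that carries the PML-RARA fusion of the nuclear body protein PML with the retinoic acid receptor RARA. The labels give no treatment, and libraries were made with a commercial kit and sequenced as read pairs on a MiSeq. The assay was CUT&Tag, in which an antibody directs a transposase to cut and tag the DNA beside the bound protein, with 2 replicates of 1 group that the authors merged into 1 peak list. The antibody is labelled only by the fusion, so normal PML or RARA as its target cannot be told apart from the fusion in these data.

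Human chromosomes end in telomeres, long arrays of a short repeat that the shelterin proteins cap. Next to them lie subtelomeres, patchworks of segments that are copied between chromosome ends, and then, at many ends, some of the most gene-rich and GC-rich DNA of the genome, which stains pale with Giemsa. Other ends are gene-poor or hold families such as olfactory receptor or zinc finger genes. PML forms nuclear bodies, and in cells that lengthen telomeres without telomerase these bodies gather telomeric DNA. PML-RARA disperses the bodies and binds DNA as a partner of the retinoid X receptor, at pairs of the nuclear receptor half-site AGGTCA and its variants.

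The sequences under the peaks were not read, since no hg19 genome was used here. Shown in their place are the promoters, from 250 bases before to 50 after the RefSeq gene start (GRCh38.p14), of 5 of the protein-coding genes with the strongest start-site peaks near chromosome ends: ADAM8 (minus strand, chr10:133276819-133277118), A1BG (minus strand, chr19:58353443-58353742), LMBR1 (minus strand, chr7:156893134-156893433), DUSP22 (plus strand, chr6:292237-292536) and MLC1 (minus strand, chr22:50085377-50085676). They run 5′ to 3′ on the strand of the gene, and capitals mark the half-site AGGTCA or its reverse complement. The RefSeq start may differ from the start in the gene models used for the peaks, and positions were not converted between builds. A promoter shown, and the half-site marked in A1BG, may therefore lie away from the peak of that gene.
ADAM8: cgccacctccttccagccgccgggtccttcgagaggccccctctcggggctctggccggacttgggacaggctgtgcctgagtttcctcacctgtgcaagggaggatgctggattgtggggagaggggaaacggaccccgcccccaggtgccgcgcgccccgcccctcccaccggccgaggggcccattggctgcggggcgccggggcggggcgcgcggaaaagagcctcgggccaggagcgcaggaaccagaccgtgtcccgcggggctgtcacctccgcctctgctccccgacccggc
A1BG: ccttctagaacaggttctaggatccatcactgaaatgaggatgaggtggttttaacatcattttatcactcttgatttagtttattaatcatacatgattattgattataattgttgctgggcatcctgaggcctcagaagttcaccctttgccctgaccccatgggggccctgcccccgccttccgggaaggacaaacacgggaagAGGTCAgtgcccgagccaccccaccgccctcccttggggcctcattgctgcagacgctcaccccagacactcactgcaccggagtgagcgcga
LMBR1: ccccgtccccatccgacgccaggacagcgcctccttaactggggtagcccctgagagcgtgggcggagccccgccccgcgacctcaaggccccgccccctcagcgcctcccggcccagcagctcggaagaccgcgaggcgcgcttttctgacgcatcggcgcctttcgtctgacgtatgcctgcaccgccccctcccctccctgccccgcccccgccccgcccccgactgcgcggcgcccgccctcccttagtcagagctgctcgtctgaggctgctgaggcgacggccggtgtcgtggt
DUSP22: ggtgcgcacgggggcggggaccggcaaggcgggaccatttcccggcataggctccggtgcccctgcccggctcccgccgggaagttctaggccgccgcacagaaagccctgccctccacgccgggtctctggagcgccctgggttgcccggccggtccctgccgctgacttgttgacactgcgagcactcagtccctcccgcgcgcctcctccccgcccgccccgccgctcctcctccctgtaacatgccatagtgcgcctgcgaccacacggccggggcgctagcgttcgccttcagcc
MLC1: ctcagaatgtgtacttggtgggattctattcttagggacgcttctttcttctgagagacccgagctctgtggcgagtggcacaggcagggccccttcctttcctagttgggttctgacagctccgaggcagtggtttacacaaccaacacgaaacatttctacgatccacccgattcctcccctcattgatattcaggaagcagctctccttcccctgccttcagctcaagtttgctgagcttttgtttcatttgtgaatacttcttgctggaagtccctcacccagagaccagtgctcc
The A1BG promoter held 1 half-site and the other 4 held 0. Searched on both strands, the half-site occurs in 11.7% of the 1751 promoters of protein-coding genes in the bands at chromosome ends. For the 18349 promoters of protein-coding genes in other bands the share is also 11.7%. It is 13.8% in all 33725 promoters on chromosomes 1 to 22, a set that adds long noncoding RNA genes to the protein-coding ones. GC content was 74.0% in ADAM8 and LMBR1, 73.0% in DUSP22, 52.7% in A1BG and 51.0% in MLC1, where the protein-coding promoters of the end bands had a median of 68.0%. The GC box GGGCGG, also searched on both strands and found in 64.5% of those promoters, occurred 8 times in LMBR1, 3 times each in ADAM8 and DUSP22, 1 time in A1BG and 0 times in MLC1, with overlapping matches counted. The telomeric repeat unit TTAGGG, on both strands, occurred 1 time in MLC1 and in none of the other 4, and is found in 7.60% of those promoters.

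Chromosome ends carried a dense population of peaks. The 39 end windows make up 4.06% of the length of chromosomes 1 to 22 and held 15% of their peaks. Density was 25.2 peaks per Mb at the ends and 6.09 per Mb in the interior, a ratio of 4.14. End peaks covered 3.22% of the bases in their windows, and interior peaks covered 0.709% of theirs. The ends held 14% of the authors' summed signal, which is 3.82 times the interior signal per Mb. Short-arm ends, with 24.4 peaks per Mb, and long-arm ends, with 25.8, had similar pooled densities. One merged list has no value per replicate, so no replicate error can be given and no test was made. Sequencing depth is unknown. Ends and chromosomes are sites within 1 list, and the spread over them given here describes how sites differ, not how replicates do.

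All 22 chromosomes had more peaks per Mb at their ends than in their interior. The ratio averaged 1.91 on the log2 scale, with an SD of 0.89 over the 22 chromosomes, which is a geometric mean of 3.77-fold. It was highest on chromosome 4, with 31.5 peaks per Mb at its ends and 1.93 in its interior (16.3-fold), followed by chromosomes 13 (8.55-fold), 21 (7.63-fold) and 5 (7.32-fold). Interior length on the acrocentric chromosomes 13 and 21 includes short-arm DNA past the first 3 Mb, with no assembly gap subtracted. Their ranks here depend on that length. The ratio was lowest on chromosome 19, whose ends had 31.2 peaks per Mb against 26.6 in an interior that is itself dense (1.17-fold). Of all peaks on chromosome 21, 35.2% lay in the 3 Mb at its long-arm end, and of all those on chromosome 4, 34.4% lay at the short-arm end alone.

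Single ends differed widely. Density per end had a mean of 25.2 peaks per Mb with an SD of 19.2 over 39 ends, a median of 22 and an interquartile range of 9.17 to 33.8. Of the 39 ends, 33 were denser than the interior of their own chromosome and 6 were sparser. The 5 densest ends were 16q with 206 peaks (68.7 per Mb), 4p with 188 (62.7), 7p with 171 (57.0), 20q with 168 (56.0) and 17q with 165 (55.0). Together they held 898 peaks, or 30.4% of the members, and the 10 densest ends held 52.9%. Relative to its own interior the 4p end stood highest, at 32.4-fold, followed by 7p at 9.95-fold and 5p at 9.51-fold.

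Behind these came 16p with 151 peaks, 19p with 144, 9q with 136, 11p with 128, 12q with 103 and 21q with 100. The 2q and 5p ends had 98 each, 10q had 96, 1p had 93 and 22q had 82. A middle group held 53 to 70 peaks per end: 8q and 14q with 70 each, 3q with 69, 20p with 66, 7q with 64, 12p with 61, 17p with 60, 13q with 58 and 5q with 53. Fewer lay at 19q (43), 15q (35), 6q (31), 1q (30), 6p (25), 18q (24), 9p (22), 8p (15) and 18p (13). Of these 9 ends, only 19q was sparser than its own interior, at 14.3 peaks per Mb against 26.6.

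The 5 sparsest ends held 14 peaks in all, and each was sparser than its own interior. The 10p end had 7 peaks, 11q had 4, 2p had 2, 4q had 1 and 3p had 0. At 3p the interior of the same chromosome had 4.21 peaks per Mb, and at 11q it had 8.87. On chromosome 4 the ends were furthest apart, with 188 peaks at 4p and 1 at 4q. Among the 17 chromosomes with both ends in the set, the long-arm end had more peaks on 11 and the short-arm end on 6.

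**Figure D1:**
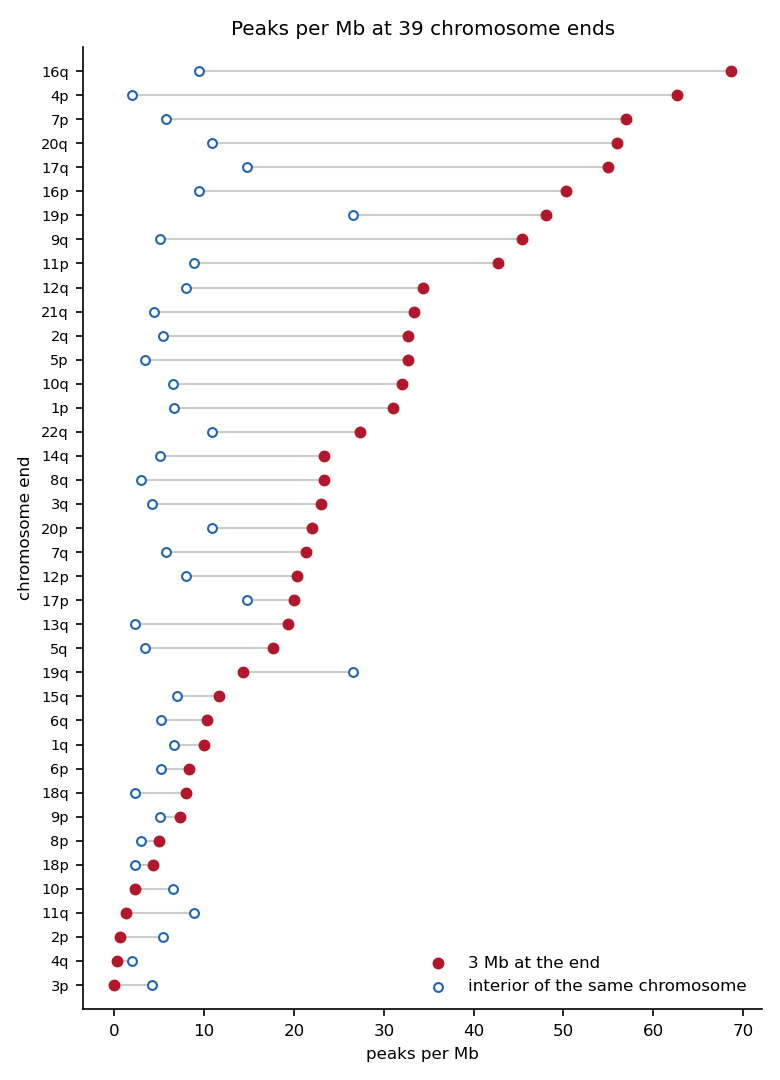
Peaks per Mb (horizontal axis) in the last 3 Mb at each of 39 chromosome ends (filled points) and in the interior of the same chromosome (open points), with ends ordered by density. 33 ends lie to the right of their own interior, 4p has the widest gap, and 19q, 10p, 11q, 2p, 4q and 3p lie to the left.

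Density was not highest at the very tip. Within 100 kb of an end there were 41 peaks (10.5 per Mb), at 15 of the 39 ends, and from 0.1 to 0.25 Mb there were 92 (15.7 per Mb). Between 0.25 and 2 Mb the pooled density was 31.5 per Mb, with 2148 peaks, and it stayed between 30 and 32.9 per Mb in each interval of that range. The median over ends was less even: 16 per Mb from 0.25 to 0.5 Mb, 26 from 0.5 to 1 Mb, 12 from 1 to 1.5 Mb and 30 from 1.5 to 2 Mb. Pooled density was 20.4 per Mb from 2 to 2.5 Mb, 13.9 per Mb from 2.5 to 3 Mb, and 13.2 per Mb from 3 to 4 Mb. Further in it lay between 9.64 and 14.6 per Mb in each interval from 4 to 15 Mb, and at 6.63 per Mb from 15 to 20 Mb. The line at 3 Mb is thus no edge in the data: 61 peaks with a median total signal of 6455 lay in the last 0.1 Mb inside it, and 62 with a median of 7210 in the first 0.1 Mb outside. Assembly gaps were not subtracted from any length, and how reads from segments shared between ends were placed is not given in the sources used here.

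**Figure D2:**
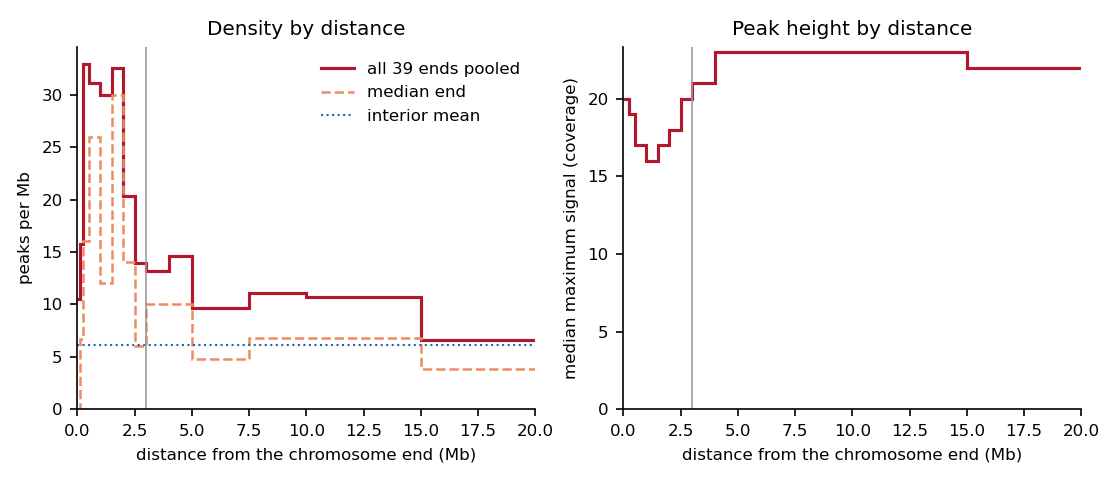
Left, peaks per Mb by distance from the chromosome end in Mb, pooled over 39 ends (solid) and as the median end (dashed), with the mean of the interior (6.09 per Mb, dotted); right, the median maximum signal of the peaks in the same distance intervals. The vertical line stands at 3 Mb. Pooled density stays near 30 per Mb from 0.25 to 2 Mb, where the median maximum is 16 to 19, against 23 between 4 and 15 Mb.

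The outermost peak lay at a median of 157 kb from the end over the 38 ends with a peak. These distances run to the full chromosome length and include any assembly gap at the tip. How reads from segments shared between ends were placed is not given. At 4 ends the outermost peak may thus lie nearer to the first assembled base than its distance tells. At 4 ends it lay within 20 kb: 7q (chromosome 7, 159127946 to 159128626, 10.4 kb from the end, total signal 7371), 10q (chromosome 10, 135523838 to 135524560, 10.5 kb, total 3181), 15q (chromosome 15, 102520489 to 102521083, 10.6 kb, total 3294) and 18p (chromosome 18, 10585 to 10982, 10.8 kb, total 5135). The widest empty tips with a later peak were 11q, where the first peak came at 883 kb, 1p at 714 kb and 9q at 700.2 kb. Total signal of the outermost peak ranged between 2577 at 4p and 20311 at 12q.

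How evenly peaks lay within an end differed between ends. At 16p the 0.5 Mb steps inward held 27, 31, 15, 26, 25 and 27 peaks, and at 2q the outer 4 steps held 24, 17, 21 and 20. Other ends were less even. At 10q, 39 of 96 peaks lay in the outer 0.5 Mb and 48 between 1 and 1.5 Mb, with 4 in the 0.5 Mb between them and 0 beyond 2 Mb. At 3q, 25 of the 69 peaks lay between 1.5 and 2 Mb from the end and 29 between 2 and 2.5 Mb. At 19q, 31 of the 43 peaks (72.1%) lay in the outer 0.5 Mb and no later 0.5 Mb step held more than 3. At 20q no peak lay beyond 2.5 Mb, and at 21q the count was highest, at 24, in the 0.5 Mb farthest from the end. The dense ends 16q and 4p were fuller further in: 16q had 56 peaks in each 0.5 Mb step between 1 and 2 Mb, and 4p had 8 in the outer 0.5 Mb and 44 between 1 and 1.5 Mb.

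**Figure D3:**
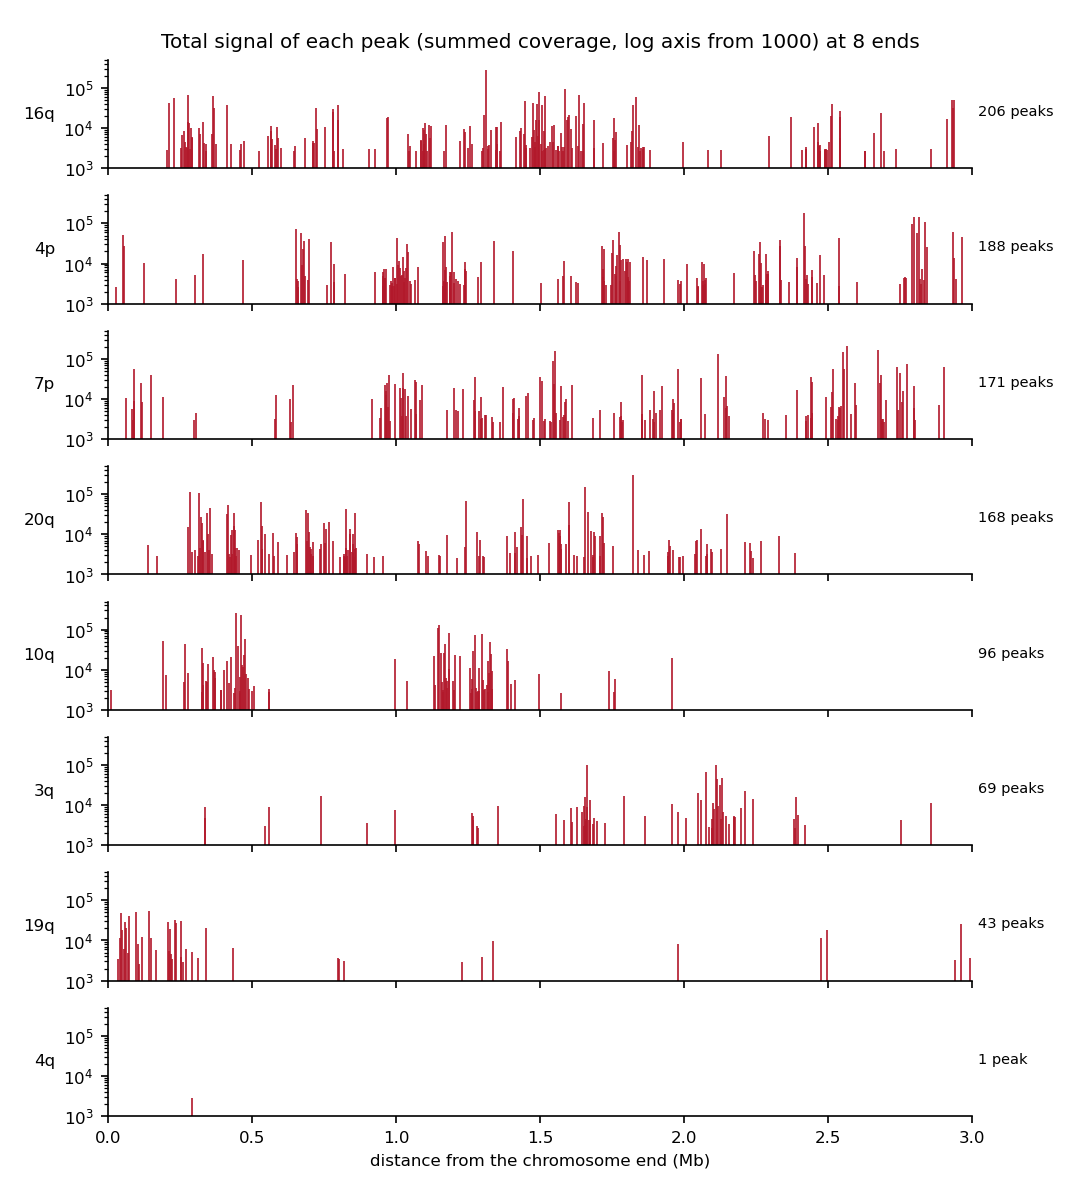
Each vertical line is a peak, placed by its distance from the chromosome end in Mb, with its total signal (summed coverage) on a log axis that starts at 1000, at 8 of the 39 ends. The 10q, 3q and 19q ends show clumps with empty stretches between them, 16q and 4p are filled over most of the 3 Mb, and 4q has 1 peak.

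End peaks were lower than interior peaks although they were slightly longer. The maximum signal of a peak, its greatest coverage in the authors' list, had a median of 17 at the ends (interquartile range 12 to 32) and 23 in the interior (15 to 39). Median length was 941 bp at the ends (707 to 1460 bp) and 887 bp in the interior (653 to 1319 bp). Total signal, the coverage summed over the peak, had a median of 5752 at the ends and 6580 in the interior, and signal per base had medians of 6.30 and 7.75. The median maximum was lower at the ends than in the interior on 21 of 22 chromosomes and equal on 1. Of the 32 ends with at least 20 peaks, 28 had a lower median maximum than their own interior, and 26 had a greater median length.

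The excess of peaks at the ends was largest for the lowest peaks. Peaks were split by the quartiles of maximum signal over chromosomes 1 to 22. Those with a maximum up to 14 had 9.53 peaks per Mb at the ends against 1.44 in the interior, a ratio of 6.62. The ratio was 3.99 for maxima above 14 and up to 22, 2.95 above 22 and up to 38, and 3.14 above 38. Ends were thus denser in every class of height. A maximum of at most 12 was found in 784 end peaks (26.6%, 95% Wilson interval 25 to 28.2%), where 16.9% of all peaks on chromosomes 1 to 22 had one, and in 15.1% of interior peaks. This and the following intervals cover counting error only. A maximum in the top 10% of the chromosomes' peaks (69 or more) was found in 237 end peaks (8.03%, 7.11 to 9.07%), beside 10.0% of all peaks. For total signal in the top 10% it was 277 (9.39%, 8.39 to 10.5%), beside 10.0% of all.

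**Figure D4:**
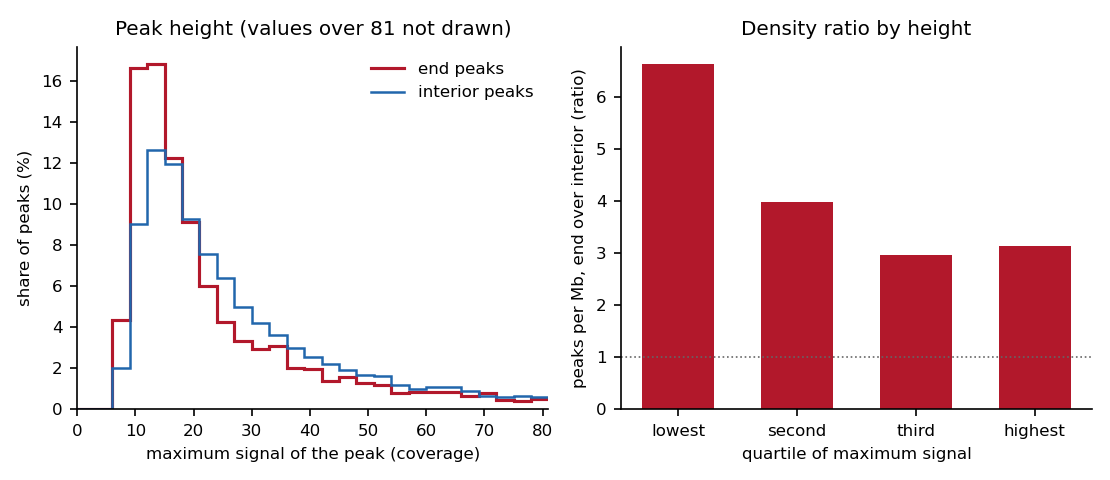
Left, the share of end peaks and of interior peaks (percent) in classes of maximum signal 3 units wide, up to 81; right, the ratio of peaks per Mb at the ends over the interior in the quartiles of maximum signal, with a dotted line at 1. End peaks are shifted to low maxima, and the ratio is 6.62 in the lowest quartile and 3.14 in the highest.

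Crowded stretches of the interior held taller peaks than crowded ends. The interior was cut into 841 windows of 3 Mb, leaving out those mostly in centromeric, variable or stalk bands, with a median of 9 peaks per window against 66 per end window. Of the 50 windows with the most peaks, 15 were ends, although the densest of all was an interior window with 234 peaks. Among windows with at least 50 peaks, the window's median maximum was 17 over 25 end windows (15 to 26) and 22 over 97 interior windows (15 to 38.5). It was at most 18 in 15 of the 25 end windows and in 7 of the 97 interior windows. Median length in these windows was similar, at 966 bp over end windows and 940 bp over interior ones. No test was made of these differences.

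**Figure D5:**
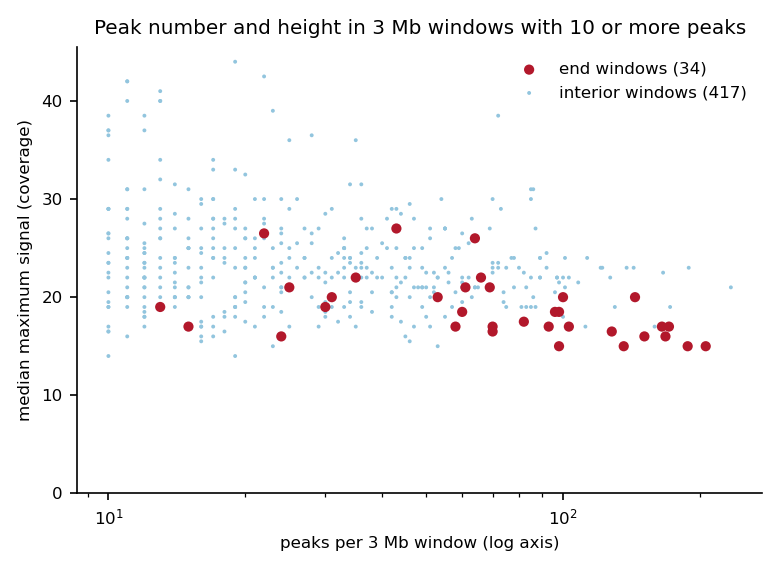
The number of peaks in a 3 Mb window (log axis) and their median maximum signal, for 34 end windows and 417 interior windows with at least 10 peaks. Among windows with at least 50 peaks, the median over end windows is 17 and that over interior windows is 22.

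End peaks stood close to one another. The gap to the nearest peak had a median of 1877 bp at the ends (interquartile range 581 to 8836 bp) and 5751 bp in the interior (1103 to 27261 bp). A neighbour within 10 kb was found for 2278 end peaks (77.2%, 75.7 to 78.7%), where 61.6% of all peaks on these chromosomes had one, and for 58.8% of interior peaks. With a run defined as neighbours joined over gaps of at most 10 kb, 724 end peaks (24.5%) lay in runs of at least 8, against 12.4% of interior peaks, and there were 59 such runs at 21 ends. Only 57 end peaks (1.93%) stood more than 100 kb from any other, against 9.02% of interior peaks. Some neighbours may be pieces of 1 broad stretch, since 37.3% of end peaks and 23.5% of interior peaks had another within 1 kb.

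The run with the most peaks lay at 16q (chromosome 16, 88742578 to 88888263) with 38 peaks over 146 kb, a summed signal of 585881 and a highest maximum of 107. At 4p, 3 runs held 25, 20 and 18 peaks; the first spanned chromosome 4, 980370 to 1051457, with a summed signal of 213113 and no maximum above 69. At 10q, a run of 23 peaks (chromosome 10, 135027984 to 135143725) had a summed signal of 730096, more than the 16q run from fewer peaks, and a second run there, at 134199685 to 134277882, also held 23. At 20q, runs of 17 peaks each lay at chromosome 20, 62664238 to 62748693 and 62165109 to 62206202.

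Of the 100 peaks of chromosomes 1 to 22 with the most total signal, 13 were end peaks, close to the 15% that end peaks make up of all peaks there. The strongest member lay at 20q (20q13.33, chromosome 20, 61199500 to 61208758, 1821 kb from the end) with a total of 292701, a maximum of 172 and rank 18. The second lay at 16q (16q24.3, chromosome 16, 89039087 to 89046424) with a total of 274168 and a maximum of 247. The third, at 5p (5p15.33, chromosome 5, 959809 to 965285), had a total of 265761 and the highest maximum of these 3, 527. It belonged to an end whose median maximum was 15, so a tall peak stood among low ones.

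The next members by total signal lay at 10q (chromosome 10, 135086009 to 135094595, total 254232, and 135070556 to 135075522, total 231174) and at 7p (chromosome 7, 2559772 to 2571193, 11421 bp long, total 213640). They were followed by 1p (chromosome 1, 2160148 to 2170566, total 188600), 7q (chromosome 7, 157404592 to 157409169, total 185603), 13q (chromosome 13, 114829619 to 114832833, total 182581) and 4p (chromosome 4, 2413528 to 2416596, total 181121). The 13q and 4p peaks were short and tall, at 3214 and 3068 bp with maxima of 409 and 414. The 7p and 1p peaks were over 3 times as long, with maxima of 149 and 314. At 17q, the other one of the 5 densest ends, the strongest peak lay at chromosome 17, 79794919 to 79801868, with a total of 145617. Peaks of at least 4 kb numbered 80 among the members (2.71%, 2.18 to 3.36%), beside 2.13% of all peaks on these chromosomes and 2.03% in the interior.

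Gene start sites near the ends carried peaks in many cases. The gene models used here, taken as hg19, are small samples shipped with software, 406 genes on chromosomes 1 to 22, of which 79 start in an end window, 54 of them at 1p. Among the 38 protein-coding ones, a peak lay within 2 kb of a start site in 23 (60.5%, 44.7 to 74.4% by Wilson's method), against 124 of 270 in the interior (45.9%, 40.1 to 51.9%). The intervals overlap and no test was made. Over all gene types it was 30 of 79 at the ends (38%) and 139 of 327 in the interior (42.5%). The models at 1p include many noncoding genes of the outermost DNA, and 13 of 54 there (24.1%) had a peak, against 17 of 25 at the other ends (68.0%). Among protein-coding models alone it was 7 of 15 at 1p (46.7%, 24.8 to 69.9%) and 16 of 23 at the other ends (69.6%, 49.1 to 84.4%). Models with the same start site were counted separately, and the 79 have 70 distinct ones. The first peak at 1p stood 714 kb from the end, so no model in the outer part of that end could have one: DDX11L1, a pseudogene, FAM138A, a noncoding RNA gene, and the microRNA gene MIR6859-1, all members of families copied between chromosome ends, had their nearest peaks 702 kb, 678 kb and 696 kb away.

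ADAM8, a membrane metalloprotease of leukocytes, had the strongest start-site peak of these genes, the fourth strongest member of all (total 254232, maximum 184), inside the 10q run of 23 peaks. It was far above the next, A1BG, a plasma glycoprotein made in liver, at 19q (chromosome 19, 58873180 to 58874503, total 29960, maximum 74). LMBR1, at 7q, an intron of which holds the limb enhancer of Sonic hedgehog, had a peak over its start site (chromosome 7, 156685521 to 156686575, total 28866, maximum 96). MMP17, a membrane-anchored matrix metalloprotease at 12q, had one 456 bp from its start (total 23317). DUSP22, a phosphatase of the JNK pathway at 6p, had one over its start (chromosome 6, 291539 to 293284, total 21252, maximum 37). Peaks have no strand and may belong to a neighbouring or antisense gene that the models leave out.

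The other protein-coding genes had weaker start-site peaks. MLC1, an astrocyte membrane protein gene at 22q, had a total of 20884, LRRC27 at 10q 16199, and POLR3K, a subunit of RNA polymerase III only 104 kb from the 16p end, 14609. MIB2, a ubiquitin ligase of Notch signalling at 1p, had 11733, and NTSR1, a neurotensin receptor at 20q, had 11443. SIRPB2, a signal-regulatory protein of the immunoglobulin family at 20p, had 9720. SELENOS, a selenoprotein of the endoplasmic reticulum at 15q, had 9146, SDF4, a calcium-binding Golgi protein at 1p, 8449, and CCNL2, a cyclin linked to splicing at 1p, 7935, from a peak that lies 766 bp from its start and covers the start of the antisense gene MRPL20-AS1. FAAP20, a member of the Fanconi anemia core complex at 1p, had 7387. The remaining 8 ranged from 5581 for CDK11A, which has a near-identical neighbour, CDK11B, to 3463 for MAPK9, the JNK2 kinase at 5q, and they include CHFR, a mitotic checkpoint ligase at 12q (3608), and AGXT, a liver peroxisomal enzyme at 2q (5098). Of the 23, ADAM8 and A1BG had a peak in the top 10% by total signal, a share near the 9.39% of all end peaks. Genes of liver, brain and ubiquitous function are among the 23.

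The 15 protein-coding genes without a start-site peak included NADK, an NAD kinase at 1p, with its nearest peak 5071 bp away, and NFATC1, a calcineurin-dependent factor at 18q, 21178 bp away. ALDH1A3, a retinaldehyde dehydrogenase at 15q, had its nearest 38143 bp away, SUN1, a nuclear envelope protein at 7p, 59350 bp, and PAEP, a secreted lipocalin of the endometrium at 9q, 166984 bp. The nearest peak of SLURP1, a secreted protein of skin, was 2886 bp away. SUN1 lies at 1 of the 5 densest ends, so a dense end did not put a peak at each start site.

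Most of the end windows lie in bands that stain pale with Giemsa, and the ends were denser than the interior within those bands too. Giemsa-negative bands made up 87.6% of the end length and 40.7% of the interior length. Within them there were 27.3 peaks per Mb at the ends and 9.80 in the interior, a ratio of 2.79. In the palest positive class the ends had 13.6 peaks per Mb and the interior 12.8, and in the next class 3.90 against 4.94. The end windows hold 9.57 and 4.10 Mb of these classes. The third class takes up 0.8 Mb of them, with 0 peaks against 2.09 per Mb in the interior, and the darkest did not occur there.

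Peaks in the bands taken as end bands also outnumbered genes. Genes were counted from a GRCh38 table in bands matched to hg19 by name, without converting coordinates, and a band was taken as an end band if at least 50% of it lay in an end window. Bands left out by this rule include 16p13.3 (151 end peaks), 19p13.3 (144), 8q24.3 (70) and 6q27 (31). Their end peaks fell among the other bands or were not counted. The values for end bands therefore do not cover the 16p, 19p, 8q and 6q ends. Whole bands were counted, so peaks outside the windows are included, such as 100 of the 265 in 17q25.3 and 73 of the 173 in 21q22.3. The 37 end bands had 22 peaks and 11.7 protein-coding genes per Mb, or 1.88 peaks per gene. The 671 other bands had 6.49 peaks and 6.81 genes per Mb, or 0.952 per gene, and the 337 Giemsa-negative ones among them had 1.08 per gene. Density followed gene density across end bands (Spearman's rho 0.81, n = 37 bands) as it did across other bands (rho 0.80, n = 671). These are descriptions over bands that share 1 list. End bands with more peaks per gene than most were 7p22.3 (167 peaks, 39 genes, 4.28 per gene), 16q24.3 (150 peaks, 37 genes, 4.05), 7q36.3 (72 peaks, 18 genes, 4 per gene) and 10q26.3 (108 peaks, 36 genes, 3 per gene). Gene-rich bands with few peaks per gene were 1q44 (41 peaks, 74 genes, 0.554), which holds many olfactory receptor genes, and 19q13.43 (40 peaks, 92 genes, 0.435), which holds many zinc finger genes. The sparse ends were gene-poor: 3p26.3 had 5 genes and no peak, 4q35.2 had 11 genes and 1 peak, 11q25 had 12 genes and 4 peaks, 10p15.3 had 13 genes and 7 peaks, and 2p25.3 had 19 genes and 6 peaks, 4 of them outside the window. Peaks per gene were low there too, at most 0.538 (10p15.3). Bands near the 4.32 genes per Mb of 2p25.3 varied: 7q36.3 (4.46 genes per Mb, 4 peaks per gene), 18q23 (4.02, 2.4) and 6p25.3 (4.35, 0.9).

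Promoters of end bands were richer in GC. Median GC content was 68.0% (interquartile range 59.7 to 75%) over 1751 promoters of protein-coding genes in end bands and 62.0% (52.3 to 69.7%) over 18349 in other bands, and the GC box occurred in 64.5% and 55.9%. The half-site AGGTCA occurred in 11.7% of promoters in both sets. The telomeric repeat unit TTAGGG, also searched on both strands, occurred in 7.60% of the promoters of end bands and in 9.06% of the others. Across the 35 end bands with at least 5 promoters, median promoter GC and peaks per Mb had a Spearman's rho of 0.47. The part that GC content plays in the number or height of peaks was not tested. Bases under the peaks themselves were not examined.

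Listed genes were placed by band only, so the values describe neighbourhoods of several Mb. Bands were taken from GRCh38 and matched to hg19 by name. A gene near a border may lie in the next hg19 band, and some may lie outside the window. The part of a band inside a window was counted, and 25.2 per Mb, the pooled end density, was exceeded in 18 of the 51 bands that reach into a window. Of the 7 bands with granulocyte and myeloid genes, 5 exceeded it. These were 16q24.3 (90.6 per Mb), which holds the co-repressor gene CBFA2T3, and 19p13.3 (48.0), which holds AZU1, PRTN3 and ELANE, the genes of the primary granule proteins azurocidin, proteinase 3 and neutrophil elastase, with CFD, the gene of complement factor D. The others were 16q24.2 (41.6), to which the GRCh38 position assigns the NADPH oxidase subunit gene CYBA, 21q22.3 (33.3), with the beta-2 integrin gene ITGB2, and 10q26.3 (32.0), with ADAM8. Below it were 20p13 (22), with the SIRP genes, and 6p25.3 (3.91), with IRF4, a factor of lymphocyte fate.

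Both bands of the interferon response genes exceeded the pooled density, 11p15.5 (41.4) with IFITM1, IFITM2, IFITM3 and IRF7, and 1p36.33 (36.5) with ISG15. Among telomere maintenance and repair genes, 3 of 4 bands did: 16q24.3 with FANCA, 20q13.33 (56.0) with RTEL1, a helicase that unwinds telomeric loops, and 5p15.33 (32.7) with TERT, the catalytic subunit of telomerase. The exception was the part of 5q35.3 in the window (17.7), a band with NHP2, a protein of the telomerase particle. The 1.32 Mb of 5q35.3 outside the window held 55 peaks, and which part holds NHP2 was not read. For signalling and transcription regulators it was 6 of 9, from 62.7 per Mb in 4p16.3, which holds CTBP1, NSD2, FGFR3 and RNF4, to 3.91 in 6p25.3 with DUSP22. Genes of other cell types, with 5 of 6 bands above it, did not stand lower: 16p13.3 (50.3), with the alpha globin genes HBA1 and HBA2, and 20q13.33, with the neural factor gene MYT1, were among the densest. Duplicated subtelomeric families had 2 of 5 bands above it and the lowest median over bands, 8.18 per Mb, from 48.0 in 19p13.3 with OR4F17 to 0.333 in 4q35.2 with DUX4 and FRG1. The genes were picked for lying in end bands, and bands are shared between lists, so the counts show where the genes lie and no link of peaks to any list.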

How the data were processed

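CUT&Tag with a PML-RARA antibody was run on NB4 cells in 2 replicates that form 1 group; nothing in the labels says whether they came from separate cultures. Per the submitters' processing notes, the authors used Trimmomatic, Bowtie2, SAMtools, bedtools and SEACR with the build hg19; the sources used here do not give versions, the SEACR threshold, a control track or the way of merging. The authors deposited 1 merged list of 20085 peaks with positions and a pair of coverage signal columns in whole numbers. The deposited column headed width is read as total signal, since it exceeds end minus start in 20085 rows, and the column headed peak as maximum signal. Both are the authors' values, with no stated scaling to depth, used only within this list; no table gives the depth per sample. Positions are as listed, and starts may count from 0.

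Chromosome lengths came from GenomeInfoDb 1.38.1, Giemsa bands of both builds from circlize 0.4.16, and gene models from GenomicFeatures 1.54.1 (hg19) and pyranges 0.1.4. The pyranges table names no build; 309 of its 346 genes with a GRCh38 position start more than 1 kb outside that position, so it is not GRCh38 and was taken as hg19, which was not settled further. Models were matched to RefSeq symbols (398 of 406), and 38 bands whose length differs by more than 10% between builds were left out of gene counts. Promoter sequences are RefSeq's (GRCh38.p14). Counts, medians and Wilson intervals (95%) were computed with Python 3.11.15, pandas 2.3.3 and statsmodels 0.14.6, and the counting was checked on planted peaks. Named by rule are the 5 densest and 5 sparsest ends, the 10 strongest members, the strongest peak of the 5 densest ends and outermost peaks. The rule also covers up to 15 protein-coding genes with start-site peaks, and listed genes by band. Given beyond that rule are the other ends, the runs with the most peaks, and the start-site peaks of CDK11A, AGXT, CHFR and MAPK9. The build check, genes without a start-site peak, noncoding genes at 1p and the promoters shown were chosen after their values were seen. The members, windows and lists were chosen with earlier results of these data known. Windows, interior, threshold, merging and distances were varied.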

Additional observations from a re-analysis of the deposited data

How the results depend on the processing

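Ends were denser than the interior under each of the alternatives tried. The ratio of 4.14 was 4.69 with windows of 2 Mb and 3.51 with 5 Mb, 3.84 without centromeric, variable and stalk bands in the interior, 2.79 in Giemsa-negative bands only, 3.71 with peaks within 1 kb merged, and 3.70 with only peaks at or above the median total signal. Leaving out each end in turn gave 3.95 (without 16q) to 4.25 (without 3p). It was 4.14 with windows of 1 Mb and with overlap in place of midpoints, and 4.11 without acrocentric chromosomes.

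The median maximum of end peaks over interior peaks, 0.739, was 0.895 above the median total signal, 0.792 after merging and 0.818 with 1 Mb windows. That of total signal, 0.874, was 0.951 after merging and 0.944 with 1 Mb, and it reversed to 1.02 above the median total signal, a selection on the same measure. Signal per base, 0.812, was 0.882 above the median total signal and 0.850 with 1 Mb. Length, 1.06, was 1.17 above the median total signal and 1.13 after merging. Leaving out each end in turn, added after seeing the data, gave 0.869 to 0.883 for total signal, 0.739 to 0.783 for the maximum, 0.807 to 0.819 per base and 1.06 to 1.07 for length.

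The share with a neighbour, 77.2%, was 66.9% within 5 kb, 95.2% within 50 kb and 67.6% after merging, each above the interior. Gene models with a start-site peak (38%) turned from below to above the interior with a 5 kb window (46.8% against 44.0%) and without the 1p end (68.0% against 42.5%). Counting shared start sites once, added after seeing the data, gave 42.9% against 43.1%. No paired analysis was possible because the list merges both replicates, and for the same reason no replicate could be left out. Where not stated, the cause was not tested.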

Other observations

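The ends of chromosome X were outside the set. The long-arm end had 67 peaks within 3 Mb (22.3 per Mb) and the short-arm end had 0, against 2.09 per Mb in the interior of X. How reads from DNA shared between chromosomes were placed is not given, so the 0 need not mean an absence of binding.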
